A study of Drosophila melanogaster with 35 samples.

Results

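The genes of the cytoplasmic ribosomal proteins were examined in DamID profiles of the Drosophila cell line Kc167. They were taken as the genes whose symbol on the array starts with RpL or RpS, without RpL15 and RpS3A, which are not analysed here. The rule found 33 of the 7736 genes with a single symbol, measured by 43 of 9993 probes, and all 33 had enough values to be tested. By role they are 11 proteins of the large subunit, 3 proteins of its stalk, 9 proteins of the small subunit and 10 paralogues or divergent relatives. The rule calls these genes highly expressed, but no expression was measured here, so the label rests on the names alone.

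Ribosomal proteins pair with ribosomal RNA to build the large and the small subunit, and every growing cell makes them in large amounts. Several have a second gene copy that is used mainly in the germ line, and some relatives, such as those with names ending in -like, act in assembling ribosomes. Heterochromatin is the compact chromatin around centromeres and on the small chromosome 4, where HP1 binds histone H3 methylated by enzymes such as Su(var)3-9. The same proteins also occur on active genes in the chromosome arms. In DamID, a protein fused to the bacterial methyltransferase Dam marks nearby DNA, and the marked fragments are compared with those from cells that carry Dam alone.

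The study asked where HP1, Su(var)3-9 and 4 further heterochromatin proteins, named HP3 to HP6, sit in the genome, and whether HP1 directs HP3 and HP6. Kc167 is derived from Drosophila embryos, and each fusion of a full-length protein with Dam and a Myc tag came from a transfected plasmid. The other channel of each 2-colour cDNA array held DNA from cells with the Dam plasmid alone, and the fusion was labelled with Cy3 on 20 arrays and with Cy5 on 15. In cells with no knock-down, 4 arrays each were made for HP1, HP3, HP4 and HP5 and 3 each for Su(var)3-9, HP6 and Jra, a transcription factor taken as a control from outside heterochromatin. After knock-down of HP1, 3 arrays were made for HP3 and 2 for HP6, and as many after knock-down of white, the control. Every group thus expressed a fusion in addition to the native protein. Whether replicate arrays stem from independent cultures is not stated in the labels. A p-value here therefore reflects array-to-array spread alone, and that spread may be technical. A DamID ratio does not show which cell type is present, so the identity of the line was not checked.

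Before any result, 2 arrays have to be set apart. Lhr, the gene of HP3, had a ratio of 0.09 on the array labelled HP3 replicate 2 and of 3.52 to 6.19 on the other 9 HP3 arrays. The highest correlation of that array with any other, over all genes, was 0.09. On the array labelled HP6 replicate 3, the gene of HP4 had a ratio of 4.81, within the 3.71 to 5.01 of the HP4 arrays, and the array correlated best with HP4 replicate 4, at 0.91. Counts of calls and medians for HP3 and HP6 in cells without a knock-down are given with and without these arrays. Other values rest on all arrays unless stated otherwise. Values are log2 ratios of fusion over Dam, with each array centred on its median. No source used here gives the log base, which was read as 2. No spot intensities were used, so signal over background is unknown, and the number of arrays limits the precision.

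Most ribosomal protein genes lay slightly above the middle of the genome for every protein but HP1, and few of them stood far above it. The median ratio over the 33 genes was 0.32 for Su(var)3-9, 0.24 for HP3, 0.20 for HP4, 0.35 for HP5, 0.22 for HP6 and 0.20 for Jra, against medians of all genes between -0.03 and 0.01. For HP1 it was -0.00. Without the 2 doubted arrays it was 0.29 for HP3 and 0.18 for HP6. The control protein Jra was thus as high at these genes, by the median, as HP4 was. The ribosomal protein median was above 0 on all arrays of every group except HP1, where the 4 arrays gave medians from -0.37 to 0.27 and had between 5 and 23 of the 33 genes above 0.

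**Figure D1:**
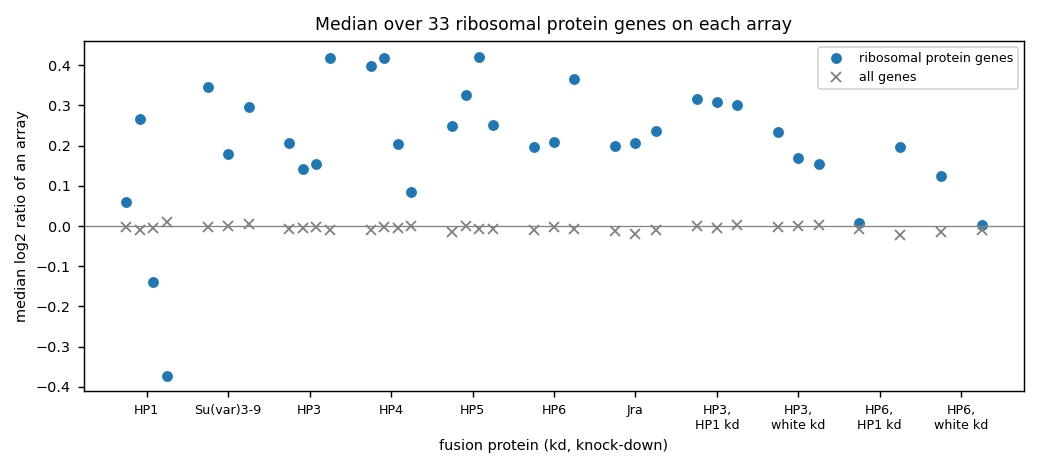
Median log2 ratio of fusion over Dam (vertical axis) on each array over the 33 ribosomal protein genes (circles) and over all genes (crosses), by fusion protein. The circles lie above 0 on all arrays but 2, both of HP1, and the HP1 circles spread from -0.37 to 0.27.

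Counts of genes past the threshold (limma, adjusted p under 0.05 over 7703 genes) stayed close to the background for some proteins and exceeded it for others. HP5 was above 0 at 10 ribosomal protein genes and below 0 at 1, while 18.3% and 19.1% of all genes were called above and below. Su(var)3-9 was above at 9 and below at 2 (all genes, 16.1% and 17.1%). For Su(var)3-9, 5 of the 23 genes of the subunits and stalk (21.7%) and 4 of the 10 paralogues (40%) were above. Their medians were 0.20 and 0.48. For HP5 these counts were 7 (30.4%) and 3 (30%). HP4 was above at 7 and below at 1 (19.4% and 22%), so its count above, 7 of 33, was near the background.

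For HP3, 4 genes were above 0 and 0 below (all genes, 3.73% and 2.38%), with 8 at an unadjusted p under 0.05 in either direction. For HP6, 3 were above and 0 below (6.39% and 3.49%), with 8 at an unadjusted p under 0.05. Without the 2 doubted arrays, 2 remained for HP3, RpS19b and RpL7-like, and 1 for HP6, RpS19b. In that fit 4.49% and 4.36% of all genes were above and below for HP3 and 4.47% and 1.23% for HP6, so both counts lay near the background. For HP1, 1 gene was above and 3 were below (7.79% and 2.77%). For Jra, 4 were above and 1 below (10.8% and 7%).

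After HP1 knock-down, HP3 was above 0 at 8 ribosomal protein genes and below at 1 (all genes, 19.9% and 8.1%). After white knock-down it was above at 2 and below at 0 (6.85% and 2.74%). There 8 of the 33 and 1927 of all 7703 genes had an unadjusted p under 0.05 (limma). HP6 was above at 1 and below at 1 after HP1 knock-down (4.17% and 0.779%). After white knock-down HP6 was above at 1 and below at 0 (3.63% and 0.792%). In that group 2 of the 33 and 1192 of all genes had an unadjusted p under 0.05. Scaling each array to the same spread raised both counts over all genes in the groups that follow. Calls above 0 then made up a smaller part of all calls. The scaling gave 752 above and 454 below for HP1 in place of 600 and 213. For HP3 it gave 820 and 765 in place of 287 and 183, and after white knock-down 1096 and 893 in place of 528 and 211. For HP6 the same scaling gave 853 and 457 in place of 321 and 60 after HP1 knock-down, and 747 and 556 in place of 280 and 61 after white knock-down. For Su(var)3-9, HP4 and HP5 the scaling lowered both counts over all genes. It gave 1079 and 1195 for Su(var)3-9 in place of 1242 and 1318. For HP4 it gave 994 and 1222 in place of 1496 and 1694, and for HP5 1196 and 1255 in place of 1412 and 1474. Over the 11 groups, with all arrays in the unscaled fit, 23 of the 33 genes were above 0 at least once. Below 0 at least once were 5, and 7 were in no call. The matching shares over all genes were not computed, so these pooled counts cannot be set against the background.

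**Figure D2:**
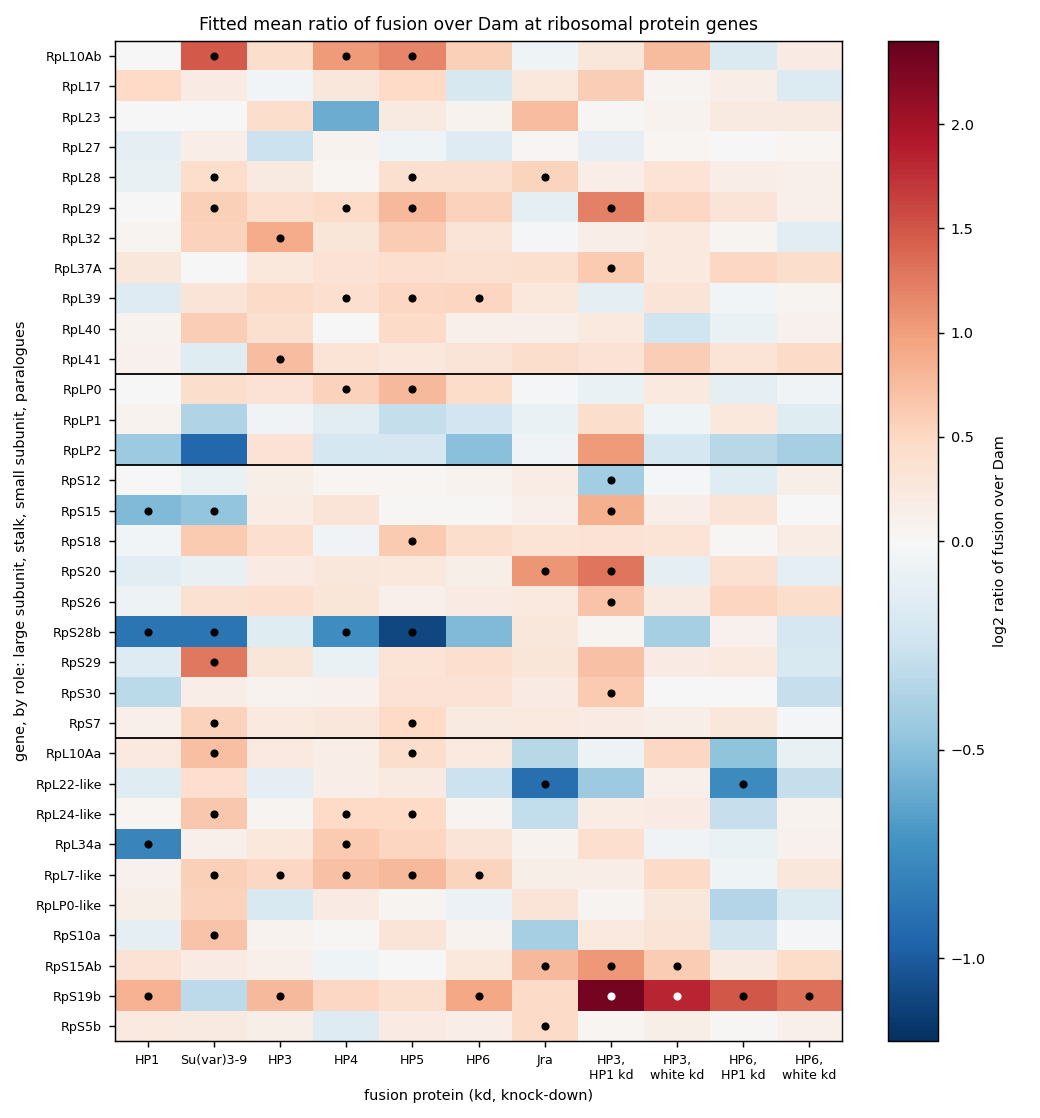
Fitted mean log2 ratio of fusion over Dam (colour) at the 33 ribosomal protein genes (vertical axis, grouped by role) for the 11 groups (horizontal axis). Dots mark means past the threshold; RpS19b after knock-down carries the highest values, up to 2.30, and RpS28b for HP5 the lowest, -1.09.

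Among the proteins of the large subunit, RpL10Ab had the highest ratios in cells without a knock-down. RpL10Ab (gene ID 39338, arm 3L) encodes the fly L10a protein, which forms the L1 stalk beside the exit site of transfer RNA. The Su(var)3-9 arrays read 2.22, 0.91 and 1.28, the HP4 arrays 1.46, 1.50, 0.85 and 0.30, and the HP5 arrays 2.08, 0.55, 1.47 and 0.59. All 11 of these arrays were above 0, with means of 1.47 ± 0.68 (SD, n = 3; adjusted p = 0.000213), 1.03 ± 0.57 (SD, n = 4; 0.00123) and 1.17 ± 0.74 (SD, n = 4; 0.00041). The HP1 arrays read -0.04, 0.73, -0.23 and -0.46 and lay on both sides of 0. Jra did so too, with -0.11, -0.46 and 0.40. With only the arrays compared in the limma fit, the Su(var)3-9 call ended (1.42; adjusted p = 0.0566), while the HP4 and HP5 calls held. The probes that name RpL10Ab with another gene were not used. For the genes below, losses are those on leaving out 1 array unless another setting is named. With only the arrays compared, 26 of the 71 calls counted at the end were lost.

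RpL29 (gene ID 37430, arm 2R), a small protein on the surface of the large subunit, was above 0 for Su(var)3-9, HP4, HP5 and HP3 after HP1 knock-down. Its HP5 arrays read 0.83, 0.85, 0.96 and 0.49 (mean 0.78 ± 0.20 SD, n = 4; adjusted p = 0.000746). The HP3 arrays read 1.20, 1.31 and 1.16 after HP1 knock-down (mean 1.22 ± 0.07 SD, n = 3; adjusted p = 1.44e-05) and 0.61, 0.45 and 0.43 after white knock-down. These 2 groups did not overlap, but their difference of 0.73 (SE 0.28) did not pass, with an adjusted p of 0.112. For Su(var)3-9 the mean was 0.58 ± 0.26 and for HP4 0.45 ± 0.19. Those calls ended without Su(var)3-9 replicate 1 (0.56) or 3 (0.43) and without HP4 replicate 1 (0.40), 2 (0.43) or 3 (0.45). With each array scaled to equal spread both ended too, at 0.47 and 0.33, and that of Su(var)3-9 ended with the replicate number as a block (0.47).

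RpL28, RpL39, RpL32, RpL41 and RpL37A made up the other calls in the large subunit. RpL28 had 3 modest means, 0.41 ± 0.13 for Su(var)3-9, 0.39 ± 0.13 for HP5 and 0.52 ± 0.05 for Jra, so it was high for the control protein too. Its Jra call ended whichever Jra array was left out, at 0.49, 0.53 and 0.57. Its Su(var)3-9 and HP5 calls were not followed in the alternatives. For probes RE31839 and RE52852 on their own (limma), the adjusted p was 0.198 and 0.062 for Su(var)3-9. It was 0.171 and 0.0415 for HP5 and 0.0384 and 0.11 for Jra. RpL39, which lines the exit tunnel of the growing peptide, was above 0 for HP4 (0.40 ± 0.42), HP5 (0.49 ± 0.22) and HP6 (0.53 ± 0.25). Its 2 probes gave opposite signs in 7 of 11 groups. In the called groups probe RH27094_ReAmp was high and probe RE50942 was not, with means of 0.78 and 0.02 for HP4, 1.09 and -0.11 for HP5 and 0.88 and 0.19 for HP6. The RpL39 call ended for HP4 without replicate 1 (0.22) or 3 (0.36), for HP5 without replicate 1 (0.43) or 3 (0.42), and for HP6 without replicate 2 (0.48) or the doubted replicate 3 (0.36).

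RpL32, often used as a reference gene in flies, and RpL41, a very short peptide at the subunit interface, were called for HP3. The HP3 arrays read -0.07, 2.55, 0.17 and 0.94 at RpL32 and 0.73, 1.32, 0.17 and 0.74 at RpL41. In both genes the doubted replicate 2 was the highest array. Without the doubted arrays the means fell to 0.33 (adjusted p = 0.393) and 0.60 (adjusted p = 0.0714), and both calls also ended without replicate 4 (0.87 and 0.70). RpL37A was above 0 for HP3 after HP1 knock-down, on arrays reading 0.58, 0.90 and 0.47, and that call ended without replicate 1 (0.68) or 2 (0.46). RpL17, RpL23, RpL27 and RpL40 passed in no group. RpL40, made as a fusion with ubiquitin, had 1 array far out, -1.57 on HP3 after white knock-down replicate 1, against 0.43 and 0.38 on the other arrays of that group.

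The stalk proteins recruit elongation factors to the ribosome, with RpLP0 at the base and RpLP1 and RpLP2 as the mobile arms. RpLP0 (gene ID 40451, arm 3L) was above 0 for HP4 and HP5, and it was the member nearest a centromere in gene order, with a rank of 113 from the centromere end of its arm. Its HP5 arrays read 1.30, 0.93, 0.60 and 0.32 (mean 0.79 ± 0.42 SD, n = 4; adjusted p = 0.000287), all above 0. Its HP4 arrays read 1.02, 0.51, 0.47 and 0.19 (mean 0.55 ± 0.35 SD, n = 4), and that call ended without replicate 1 (0.40). RpLP1 and RpLP2 were called in no group while all arrays were in the fit. Without the 2 doubted arrays, HP3 after HP1 knock-down was above 0 at RpLP1 (0.44; adjusted p = 0.0331) and RpLP2 (1.07; adjusted p = 0.00182), and Su(var)3-9 was below 0 at RpLP2 (-0.90; adjusted p = 0.0079). RpLP2 read -0.88, -1.03 and -0.91 for Su(var)3-9, the lowest mean of the 33 genes for that protein (-0.94 ± 0.08 SD, n = 3), with an adjusted p of 0.0708. After HP1 knock-down the HP3 arrays read 1.24, 1.70 and 0.13 at RpLP2, with an adjusted p of 0.0581. The doubted HP3 replicate 2 read 2.84 there, while the other HP3 arrays without a knock-down were at or below -0.04.

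In the small subunit, RpS28b was low for 4 of the heterochromatin proteins. RpS28b (gene ID 31897, arm X) encodes a protein near the exit of the messenger RNA channel. The HP5 arrays read -1.76, -1.05, -0.86 and -0.69 (mean -1.09 ± 0.47 SD, n = 4; adjusted p = 9.25e-05). The Su(var)3-9 arrays read -1.30, -1.07 and -0.36, and the HP1 arrays -0.99, -1.64, -0.49 and -0.37. The HP4 arrays read -1.65, -0.59, -0.44 and -0.30. The gene lay below 0 on all 15 of these arrays and above 0 on the 3 Jra arrays (0.31, 0.14 and 0.24). The HP5 call held in all the alternatives in which single calls were followed. The call ended for HP1 without replicate 2 (-0.57), for Su(var)3-9 without replicate 1 (-0.71) and for HP4 without replicate 1 (-0.47). Those of HP1 (adjusted p = 0.108) and HP4 (0.116) also ended with only the arrays compared in the limma fit. A cDNA probe can also hybridise to a close copy of its gene, so values at RpS28b and at the paralogues below cannot be assigned to 1 copy with certainty.

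RpS20 (gene ID 42464, arm 3R), a protein of the head of the small subunit, was high for Jra and for HP3 after HP1 knock-down. The Jra arrays read 1.03, 1.34 and 0.89 (mean 1.09 ± 0.23 SD, n = 3; adjusted p = 4.04e-05), above every array of the 6 heterochromatin proteins in cells without a knock-down. The HP3 arrays after HP1 knock-down read 1.26, 1.57 and 1.12 (mean 1.32 ± 0.23 SD, n = 3; adjusted p = 4.16e-07). Both probes of the gene showed this, at 1.08 and 1.10 for Jra and at 1.43 and 1.21 for HP3 after HP1 knock-down.

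RpS15, also in the head of the small subunit, was below 0 for HP1 and Su(var)3-9 and above 0 for HP3 after HP1 knock-down. The HP1 arrays read -0.20, -0.93, -0.42 and -0.56, and the Su(var)3-9 arrays -0.54, -0.65 and -0.23, all below 0. Those calls ended without HP1 replicate 1 (-0.37) or 2 (-0.31) and without Su(var)3-9 replicate 1 (-0.44) or 2 (-0.39). For HP1 the gene's probe RE03680 had a mean of -0.27 over 4 arrays, while probe RE08270 had values on 2 arrays alone, -0.36 and -1.80. The HP3 arrays after HP1 knock-down read 0.82, 1.09 and 0.65 (mean 0.85 ± 0.22 SD, n = 3; adjusted p = 0.000117), and both probes were high there, at 0.93 and 0.78.

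The other calls in the small subunit were smaller or rested on fewer arrays. RpS7 was above 0 for Su(var)3-9 (0.55 ± 0.21) and HP5 (0.47 ± 0.26), calls that ended without Su(var)3-9 replicate 1 (0.46) and HP5 replicate 2 (0.37). RpS18 was above 0 for HP5 (0.63 ± 0.23), a call that ended without replicate 1 (0.52), 2 (0.62) or 3 (0.65). RpS29 was called for Su(var)3-9 on arrays reading 3.02, 0.09 and 0.65. The high value came from 1 probe, RH20790, which read 5.71 on replicate 1 while the gene's other probe, RH06643, read 0.33. Without that array the mean was 0.37, with an adjusted p of 0.151. RpS29 also read 0.57, 0.79 and 0.70 for HP3 after HP1 knock-down, with no call on the gene. On its own, probe RH06643 passed in that group (0.65, limma adjusted p = 0.000972) and probe RH20790 did not (0.72, adjusted p = 0.309). For HP3 after HP1 knock-down, RpS26 (0.66 ± 0.31) and RpS30 (0.62 ± 0.42) were above 0 and RpS12 (-0.39 ± 0.21) below. Leaving out replicate 1 or 2 ended the calls on RpS26 (0.62 both times) and RpS30 (0.56 and 0.46), and leaving out any array ended that on RpS12 (-0.52, -0.39 and -0.34).

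Among the paralogues, RpS19b stood out by its number of calls and its height. RpS19b (gene ID 42830, arm 3R) is the copy of RpS19 known in flies for its use in the germ line. It was above 0 in 7 of the 11 groups. The HP1 arrays read 0.52, 1.61, 0.69 and 0.52, the HP3 arrays 0.91, 0.46, 1.02 and 0.72, and the HP6 arrays 1.52, 1.26 and 0.05, where the last is the doubted array. Without the doubted arrays the fitted HP3 mean was 0.89 (adjusted p = 0.00817) and that of HP6 1.35 (adjusted p = 0.00177). The Su(var)3-9 arrays read -0.18, -0.79 and 0.11, and did not overlap with those of HP1. The HP4 arrays split, at 0.94 and 1.22 against -0.13 and -0.02, and the Jra arrays read 0.62, 0.43 and 0.41. Neither HP4 (adjusted p = 0.0532), HP5 (0.147) nor Jra (0.2) passed, but without the doubted arrays HP4 did, with the same mean of 0.50 (adjusted p = 0.032).

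RpS19b was also high in knock-down cells, whichever gene was knocked down. HP3 read 2.25, 2.52 and 2.20 after HP1 knock-down (adjusted p = 1.33e-08) and 1.83, 1.86 and 1.86 after white knock-down (adjusted p = 2.2e-06). HP6 read 1.53 and 1.45 after HP1 knock-down and 1.40 and 1.25 after white knock-down. All 6 HP3 arrays in knock-down cells exceeded the 4 HP3 arrays in cells without one; that difference was not tested. With only the arrays compared in the limma fit, the RpS19b calls for HP1 (adjusted p = 0.0838) and HP3 (0.202) ended. The RpS19b calls also ended without HP1 replicate 2 (0.54) and without HP3 replicate 1 (0.76), 3 (0.67) or 4 (0.77). They ended without HP6 replicate 1 (0.65) or 2 (0.79) as well. With only 1 array left in either HP6 knock-down group they ended too, at 1.53 and 1.45 after HP1 knock-down and at 1.32 and 1.33 after white knock-down.

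**Figure D3:**
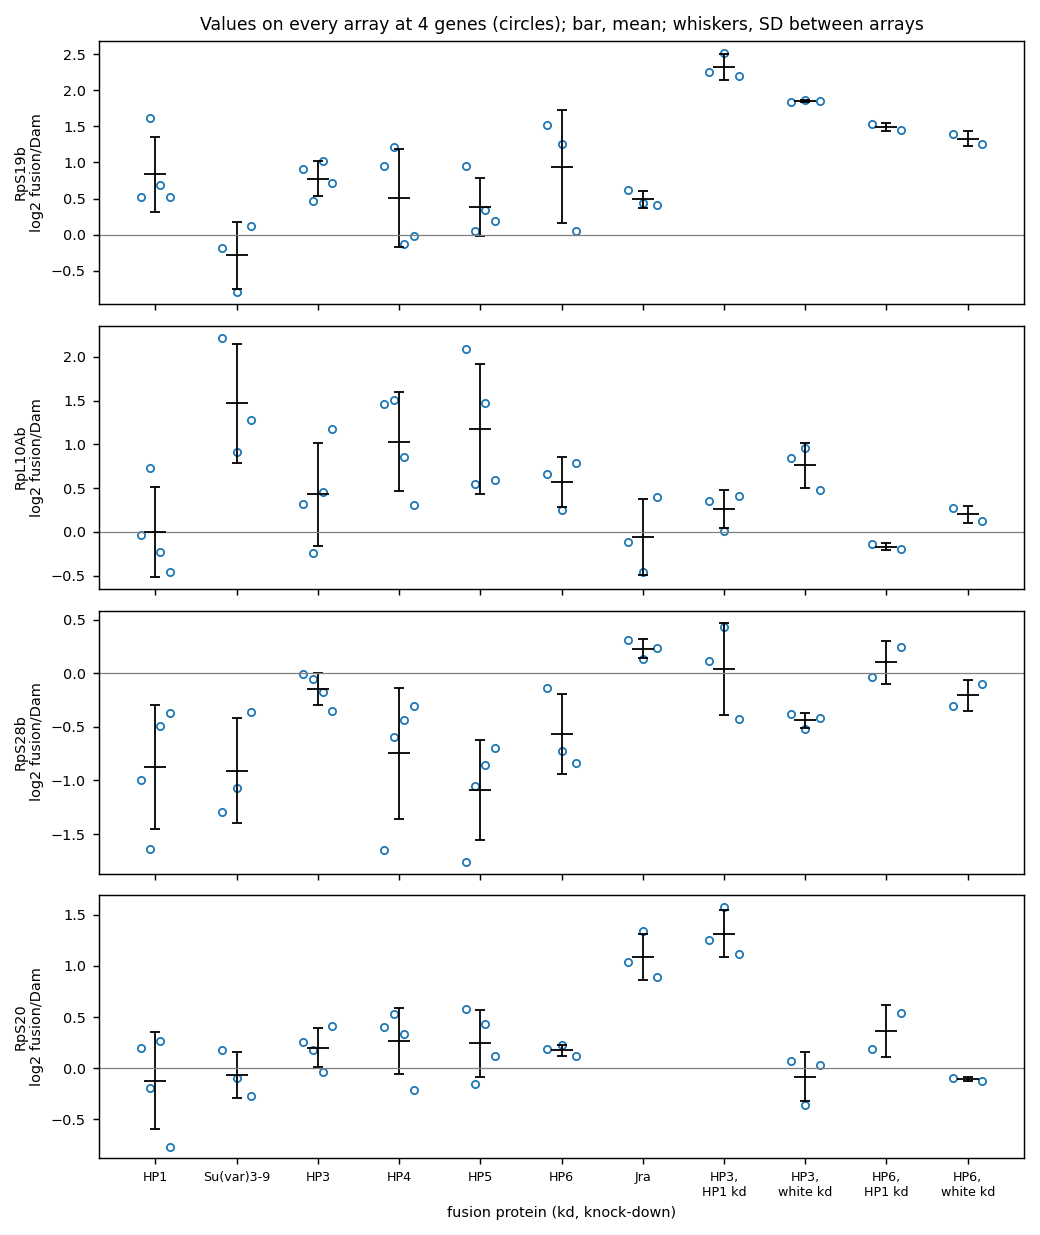
Log2 ratio of fusion over Dam (vertical axis) on every array (circles) at RpS19b, RpL10Ab, RpS28b and RpS20 for the 11 groups, with the mean (bar) and the SD between arrays (whiskers). RpS19b is above 1 on every array of knock-down cells, and RpL10Ab is above 0 on every array of Su(var)3-9, HP4 and HP5. RpS28b is below 0 on every array of HP1, Su(var)3-9, HP4 and HP5. RpS20 is high for Jra and for HP3 after HP1 knock-down.

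RpL7-like and RpL24-like, relatives of yeast proteins that act in assembling the large subunit, were above 0 for several heterochromatin proteins. RpL7-like was called for 5 of the 6, all but HP1. Its HP5 arrays read 0.91, 1.06, 0.76 and 0.36 (mean 0.77 ± 0.30 SD, n = 4; adjusted p = 0.000159) and its HP4 arrays 1.19, 0.53, 0.81 and 0.30. Its means were 0.61 ± 0.14 for Su(var)3-9, 0.51 ± 0.31 for HP3 and 0.57 ± 0.23 for HP6, while the Jra arrays read 0.20, 0.14 and 0.17. The call ended without Su(var)3-9 replicate 1 (0.53) or 3 (0.56) and whichever HP3 (0.40 to 0.56) or HP6 (0.31 to 0.65) array was left out, the lowest HP6 value being that without the doubted array. Both probes of RpL7-like had means above 0 for these 5 proteins. On its own, probe RE33833 passed for Su(var)3-9, HP4, HP5 and HP6 but not for HP3, and probe RH63749 passed in no group. The probe means were 0.91 and 0.50 for HP4 and 1.06 and 0.49 for HP5. RpL24-like was called for Su(var)3-9 (0.62 ± 0.09), HP4 (0.48 ± 0.29) and HP5 (0.48 ± 0.14). Those calls ended without Su(var)3-9 replicate 1 (0.59), HP4 replicate 2 (0.35) and HP5 replicate 1 (0.40).

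RpL10Aa, the paralogue of RpL10Ab, was lower than it for the same proteins. The Su(var)3-9 arrays read 0.76, 0.69 and 0.68 at RpL10Aa (mean 0.71 ± 0.04 SD, n = 3; adjusted p = 0.00302), each below every reading of that protein at RpL10Ab. The HP5 arrays read -0.25, 0.84, 0.68 and 0.45 at RpL10Aa, and this call ended without replicate 2 (0.26), 3 (0.37) or 4 (0.45). HP4 was not called at RpL10Aa, with readings of -0.03, 0.11, 0.24 and 0.30. Different probes differ in their response, so these levels are set side by side with no test. The other pair on the array, RpLP0 and RpLP0-like, a relative of a yeast assembly factor, differed in calls: RpLP0-like passed in no group with all arrays in the fit, and its HP5 arrays read -0.04, -0.29, 0.51 and 0.11. Without the doubted arrays Su(var)3-9 was above 0 at RpLP0-like (0.54; adjusted p = 0.0493).

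RpL22-like and RpS15Ab were set apart by Jra. RpL22-like (gene ID 37684, arm 2R), a paralogue of RpL22 known in flies from the testis, read -1.10, -1.33 and -0.33 for Jra (mean -0.92 ± 0.53 SD, n = 3; adjusted p = 0.000291), all below 0. For HP6 after HP1 knock-down it read -0.63 and -0.90, a call that ended with either array left out (-0.95 and -0.57). RpS15Ab (gene ID 36142, arm 2R), a close copy of RpS15Aa, read 0.55, 0.96 and 0.66 for Jra (mean 0.72 ± 0.21 SD, n = 3; adjusted p = 0.000881). It read 0.87, 1.48 and 0.61 for HP3 after HP1 knock-down and 0.74, 0.60 and 0.34 after white knock-down. The last call ended without replicate 1 (0.47).

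RpL34a, RpS10a and RpS5b had calls that rested on few arrays. RpL34a read 0.17, -2.19, -0.21 and -0.95 for HP1 and 0.80, 1.70, 0.19 and -0.15 for HP4, so both groups lay on both sides of 0. The HP1 call ended without replicate 2 (-0.38) and the HP4 call without replicate 1 (0.65) or 2 (0.34). RpS10a read 0.15, 1.90 and 0.09 for Su(var)3-9, and without replicate 2 its mean was 0.12, with an adjusted p of 0.718. RpS5b, a copy used in the fly ovary, read 0.62, 0.64 and 0.07 for Jra, and the call ended without replicate 1 (0.35) or 2 (0.34).

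Jra served as the study's control, so the mean of the 6 heterochromatin proteins was set against it. At 5 ribosomal protein genes the heterochromatin proteins were higher and at 3 they were lower, while 17.3% and 18.9% of all genes were called higher and lower. The higher ones were RpL22-like, by 0.95 (SE 0.18; adjusted p = 0.000134), RpL10Ab by 0.83, RpL10Aa by 0.67, RpL24-like by 0.59 and RpL29 by 0.57. The lower ones were RpS28b, with a difference of -0.97 (SE 0.24; adjusted p = 0.00224), RpS20, with -0.95 (SE 0.18; adjusted p = 0.000117), and RpS15Ab, with -0.63. The median difference over the 33 genes was -0.01, against 0.05 over all genes. Without the doubted arrays it was -0.04, and again 5 genes were higher and 3 lower (all genes, 17.7% and 19.4%). Both counts, 5 and 3 of 33, were near or below the background.

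These differences have unlike sources in the values. At RpS20 and RpS15Ab the Jra mean was high (1.09 and 0.72) and that of the heterochromatin proteins near 0 (0.12 and 0.13). At RpS28b the heterochromatin proteins were low, at -0.72, and at RpL22-like Jra was low, at -0.92. The calls on RpL22-like, RpS20 and RpS28b held in all the alternatives in which single calls were followed. The others ended without 1 Jra array: RpL10Ab without replicate 1 (0.81) or 2 (0.63), RpL24-like without 1 (0.53) or 2 (0.39), RpL29 without 1 (0.40) or 3 (0.60), RpL10Aa without 2 (0.60) and RpS15Ab without 2 (-0.46).

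Su(var)3-9 and HP1 work together in heterochromatin, and their ratios at ribosomal protein genes were compared directly. Su(var)3-9 was higher at 2 genes and lower at 1, while 2.26% and 5% of all genes were called. RpL10Ab was higher by 1.47 (SE 0.37; adjusted p = 0.0152) and RpS29 by 1.42 (SE 0.36; adjusted p = 0.0168). RpS19b was lower, with a difference of -1.15 (SE 0.32; adjusted p = 0.0271). The median difference over the 33 genes was 0.43, against -0.03 over all genes, and the Su(var)3-9 arrays lay entirely above those of HP1 at 5 of the 33 genes and entirely below at 3 (all genes, 7.27% and 14%).

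Each of the 3 calls was lost when certain arrays were left out. All 3 ended without Su(var)3-9 replicate 1, at 1.09 for RpL10Ab, 0.53 for RpS29 and -1.17 for RpS19b. They also ended without HP1 replicate 3, at 1.39, 1.38 and -1.22, and that on RpS19b without HP1 replicate 2 (-0.86) or Su(var)3-9 replicate 2 (-0.87).

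The knock-down of HP1 was compared with that of white. HP3 rose at 2 ribosomal protein genes and fell at 0, while 8.31% of all genes rose and 0.48% fell. An unadjusted p under 0.05 (limma) was found at 7 of the 33 and at 1451 of all 7703 genes. RpS20 rose by 1.40 (SE 0.23; adjusted p = 0.000202), from 0.07, -0.36 and 0.03 after white knock-down to 1.26, 1.57 and 1.12 after HP1 knock-down. The arrays did not overlap, both probes moved, and the call held in all the alternatives in which single calls were followed. RpS15 rose by 0.70 (SE 0.23; adjusted p = 0.0487), from 0.51, -0.02 and -0.04 to 0.82, 1.09 and 0.65. That call ended without replicate 1 (0.72) or 2 (0.58) of HP1 knock-down and without replicate 2 (0.61) or 3 (0.61) of white knock-down.

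The other ribosomal protein genes did not move one way for HP3. The median difference over the 33 genes was 0.03, against -0.03 over all genes. The HP3 arrays of HP1 knock-down lay entirely above those of white knock-down at 8 genes and entirely below at 6, while 24% and 18.8% of all genes did so. At RpS19b the groups did not overlap, yet the difference of 0.47 (SE 0.34) had an adjusted p of 0.518. RpLP2 differed by 1.24 (SE 0.57; adjusted p = 0.222), and without the doubted arrays this rise passed (SE 0.36; adjusted p = 0.0239). The lowest difference was that of RpL10Aa, -0.56 (SE 0.26; adjusted p = 0.223).

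HP6 was called at none of the 33 genes in the same comparison (limma). Over all genes 0 rose and 2 fell, which is 0.026%, and 136 of all genes but 0 of the 33 had an unadjusted p under 0.05. The highest values were RpS20 with 0.47 (SE 0.29), RpS29 with 0.42 and RpLP1 with 0.39, and the lowest RpL22-like with -0.47 (SE 0.29), RpL10Aa with -0.40 and RpL10Ab with -0.37. The HP6 arrays lay entirely apart at 9 genes upward and 9 downward (all genes, 22.1% and 18.2%). The difference between the HP3 and the HP6 knock-down effect passed at 0 of the 33 genes and at 0% of all genes (limma). Before adjustment 420 of all genes passed 0.05, and among the 33 only RpS20, with a difference of 0.93 (SE 0.37; adjusted p = 0.708). The 3 highest differences were those of RpLP2, 1.16, RpS20 and RpL40, and the 3 lowest those of RpL39, -0.33, RpL32, -0.29, and RpLP0, -0.23.

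**Figure D4:**
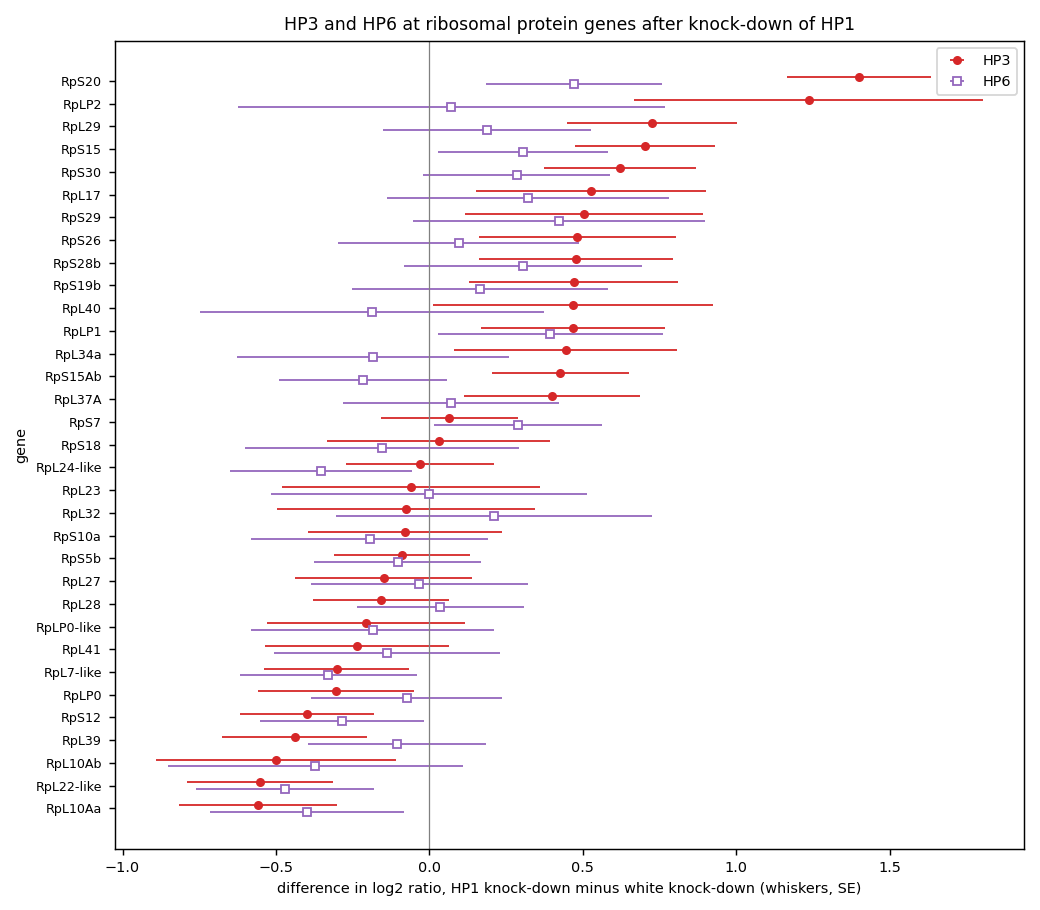
Difference in log2 ratio between HP1 knock-down and white knock-down (horizontal axis, with SE) at each ribosomal protein gene (vertical axis) for HP3 (filled circles) and HP6 (open squares). RpS20 has the highest HP3 value, 1.40, and at most other genes the whiskers of both proteins overlap.

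By position the 33 genes were spread over all large arms, with 5 on 2L, 10 on 2R, 4 on 3L, 12 on 3R and 2 on X, and 0 on chromosome 4 (RefSeq, Release 6 assembly). None was among the 100 genes nearest the centromere of its arm. Up to 2 measured genes on each side were taken as neighbours, 127 pairs of a gene and a neighbour in all. After HP1 knock-down, HP3 was above 0 at 13 of 32 neighbours of the ribosomal protein genes it was called at (40.6%). It was above 0 at 17 of 95 neighbours of the others (17.9%) and at 19.9% of all genes. For HP4 the counts were 9 of 27 (33.3%) and 19 of 100 (19%), against 19.4% of all genes. For HP6 in cells without a knock-down they were 2 of 12 (16.7%) and 8 of 115 (6.96%), against 6.39%. For HP5 they were 5 of 36 (13.9%) and 15 of 91 (16.5%), and for Su(var)3-9 5 of 32 (15.6%) and 12 of 95 (12.6%). HP3 gave 0 of 8 and 10 of 119 after white knock-down, and 0 of 16 and 5 of 111 without a knock-down. HP1 gave 0 of 4 and 13 of 123, and Jra 3 of 16 and 15 of 111. HP6 gave 0 of 4 and 3 of 123 after HP1 knock-down, and 0 of 4 and 6 of 123 after white knock-down. The doubted arrays were in the fit behind all these counts. RpS19b was called for HP1 while 0 of its 4 neighbours were, and their mean was -0.12. Neighbours of different genes can be the same gene, so these counts are a description.

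Other genes of protein synthesis were counted for comparison. The 61 mitochondrial ribosomal protein genes had medians like those of the cytoplasmic ones, 0.32 for Su(var)3-9, 0.24 for HP3, 0.21 for HP4 and 0.37 for HP5, but 0.06 for Jra. For HP3 after HP1 knock-down they were above 0 at 28 genes, or 45.9%, and below at 2, against 19.9% and 8.1% of all genes. HP3 rose at 11 of them, or 18%, and fell at 1 in the knock-down comparison, against 8.31% and 0.48% of all genes. Their leading genes there were mRpS11, up by 2.10 (adjusted p = 3.98e-05), mRpL55 by 1.80 and mRpL18 by 1.70. The gene with the largest mean was mRpS5 for HP1, HP4 and HP5, at 2.31, 1.97 and 1.94, and mRpL33 for Su(var)3-9, at 2.33.

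The 41 translation factors differed in sign from the ribosomal protein genes for several proteins. Their median was -0.20 for HP5, -0.10 for Su(var)3-9 and 0.25 for Jra, and the heterochromatin proteins were lower than Jra at 14 of them and higher at 3, or 34.1% and 7.32%, against 18.9% and 17.3% of all genes. The scaffold factor eIF4G1 was an exception, 2.66 above Jra (adjusted p = 0.000131), while eEF5 was at -1.31 and eIF4EHP at -1.21. In the knock-down comparison HP3 rose at 6 (14.6%) and fell at 0 of the translation factors, against 8.31% and 0.48% of all genes. The rises were led by eEFSec with 2.21, eIF3j with 1.64 and eIF3f1 with 1.63. The 20 ribosome biogenesis factors had medians of -0.15 for HP1 and -0.41 for Su(var)3-9. Su(var)3-9 was above 0 at 6 and below at 7 of them, or 30% and 35%, against 16.1% and 17.1% of all genes. Among them Tif-IA, a factor for transcription of ribosomal RNA genes, had ratios of 2.84 for HP1 and 1.33 for Su(var)3-9. HP3 rose at 1 of these 20 after HP1 knock-down, Ns1, by 1.18 (adjusted p = 0.00303), and fell at 0. These are 5% and 0%, against 8.31% and 0.48% of all genes.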

How the data were processed

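The deposited table holds 35 arrays and 9993 probes with log2 ratios of fusion over Dam, made and centred by the authors (column medians from -0.00017 to 0.00027). No source used here gives the log base (taken as 2), the normalisation or the build. Missing were 434 values (0.124%). In the array annotation 8682 probes have 1 gene, 298 several and 1013 are unnamed here, and only the first were used. RefSeq (Release 6) gave current symbols, arms and gene order, and no coordinates were taken from it.

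Each array was centred on its median, probes with under 2 values in a group were left out, and probes of a gene were averaged, which left 7703 genes. The 35 arrays entered 1 limma fit (version 3.58.1, R 4.3.3), in which each group had a mean and the dye a term of its own (residual df 23, prior df 6.96). Tests were two-sided, adjusted by Benjamini-Hochberg over all genes of a comparison, with a threshold of 0.05. The fit was tested on simulated data. Printed means are arithmetic, differences are fitted.

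The genes, lists and tests were chosen with earlier results of these data known. For each comparison the genes past the threshold are named, or the 3 highest and 3 lowest where none passed. Alternatives were no dye term, no centring, equal spread, only the arrays compared, each probe on its own, complete probes, current symbols, replicate number as block, leaving out each array, and leaving out the 2 doubted arrays. Single calls were followed in all of these but each probe on its own, complete probes and current symbols, which gave counts alone. Same-numbered knock-down arrays of HP3 correlated at 0.085, 0.0549 and 0.249 in their deviations, so the numbers were not taken as pairs. Probe and gene sequences were not analysed here.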

Additional observations from a re-analysis of the deposited data

Results flagged for a closer look

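In the 4 groups with 4 arrays, 132 sets of 4 values were examined for an array far from the others, and 3 stood out, where chance alone gives about 6.6. RpL17 read 2.11 on HP1 replicate 2 and between -0.18 and 0.05 on the other HP1 arrays. RpS19b read 1.61 on the same array and between 0.52 and 0.69 on the others. RpL27 read -0.53 on HP5 replicate 1 and between 0.08 and 0.12 on the others.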

How the results depend on the processing

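Followed were 71 calls on named ribosomal protein genes, which leave out those on RpL28 for Su(var)3-9 and HP5. Each probe on its own, complete probes and current symbols gave counts alone, so no single call was followed there. In all the other alternatives 20 of the 71 held, and 0 changed sign. The other calls were lost in at least 1, and the cause was not tested. Of the 71, 26 were lost with only the arrays compared, 6 with equal spread, 5 with the replicate block, 4 without the doubted arrays and 1 without the dye term. With each array scaled to equal spread, the count above 0 was 8 for HP3, 4 for HP4, 6 for HP3 after white knock-down and 2 for HP6 after white knock-down, and the count below 0 was 1 for Su(var)3-9, 1 for HP6, 1 for HP3 after white knock-down and 2 for HP6 after HP1 knock-down. With only the arrays compared in the fit, counts above and below were 0 and 0 for HP1, 1 and 0 for HP4, 5 and 2 for HP6, 9 and 2 for Jra, 15 and 2 for HP3 after HP1 knock-down and 10 and 1 after white knock-down. In that fit 0 were above for HP3, 3 were higher than for Jra, 0 were higher and 0 lower for Su(var)3-9 than for HP1, and HP3 rose at 8 and fell at 2 after HP1 knock-down. Shares over all genes were not computed for the fits with only the arrays compared, so their counts cannot be set against the background. The 2 groups of HP6 in knock-down cells could not be fitted alone, having 2 arrays each. Without the doubted arrays, 2 were above for HP3 (all genes, 4.49%) and 1 was above for HP6 (4.47%). In that fit 2 were below for HP3 after HP1 knock-down (8.95%).

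The replicate number as a block left 1 above for HP6 (3 without the block) and 0 below for HP6 after HP1 knock-down (1 without), moved no other count by over 1.5 times and left 2 rises of HP3 and 0 of HP6 after HP1 knock-down. Same-numbered arrays were not paired by the labels.

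Leaving out each array in turn gave counts above and below of 0 to 1 and 0 to 3 for HP1, 3 to 7 and 0 to 2 for Su(var)3-9, 0 to 2 above for HP3, 3 to 9 and 1 to 2 for HP4, 0 to 1 above for HP6, 2 to 3 above for Jra, 5 to 9 and 0 to 1 for HP3 after HP1 knock-down, 1 to 2 above after white knock-down, and 0 for HP6 in knock-down cells. The counts were 2 to 6 higher than for Jra, 0 to 7 higher and 0 to 1 lower for Su(var)3-9 than for HP1, and 1 to 3 for the rise of HP3. Shares over all genes were not computed for the fits with 1 array left out, so these counts cannot be set against the background. A lone array was assumed to vary like the other groups. In the difference between both knock-down effects, which did not pass, RpL40 ranged from -0.0064 without replicate 1 of HP3 after white knock-down to 1.01 without replicate 2. No dye term, no centring, each probe on its own, complete probes and current symbols moved no count by over 1.5 times.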
